A study of Mus musculus with 14 samples.

Results

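Calcium/calmodulin-dependent protein kinases (CaM kinases) and their inhibitors are represented here by 10 genes: the 4 CaMKII subunits Camk2a, Camk2b, Camk2d and Camk2g, the CaMKII inhibitors Camk2n1 and Camk2n2, and the kinases or kinase-like genes Camk4, Camk1d, Camk1g and Camkv. They were picked by symbol, chosen by their mutant against control differences in both experiments, and all 10 were found among the 24690 symbols shared by a table of 25229 symbols (progenitor experiment) and a table of 55353 symbols (postmitotic experiment). All 10 passed the filter on low counts in both tables. RNA came from microdissected layer II/III of mouse cerebral cortex at postnatal day 5, in 14 libraries, and every animal carried Lhx2lox/lox, the floxed alleles of the LIM-homeodomain factor gene Lhx2. In the progenitor experiment, 4 libraries labelled mutant came from cortices electroporated with Cre-EGFP at E15.5, and 4 controls from cortices electroporated with EGFP. In the postmitotic experiment, 3 libraries labelled mutant came from NexCre/+; Lhx2lox/lox cortices and 3 controls from Lhx2lox/lox cortices, both electroporated with EGFP. NexCre expresses Cre from Neurod6, a gene of newly postmitotic excitatory neurons, and is carried in the germ line, so deletion there is not limited to electroporated cells. Electroporation reaches a part of the progenitors of a cortex, and the labels name no sorting step after dissection. The tissue age, the floxed alleles, the electroporated EGFP and the day of electroporation (E15.5) are common to all 4 groups.

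CaM kinases turn a rise of cytosolic calcium into protein phosphorylation. Calmodulin that has bound calcium opens the kinase's autoinhibited fold. CaMKII assembles into large holoenzymes of mixed subunits, and its alpha and beta subunits are among the most abundant proteins of the postsynaptic density, where they take part in synaptic plasticity and in shaping dendrites and spines. CaMKI and CaMKIV are switched on by CaM kinase kinases, and CaMKIV works in the nucleus on CREB.

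The groups are called by their labels below, since the targeted gene was not lower in the libraries labelled mutant. Lhx2 had 130 ± 11.4 CPM (counts scaled to library size with TMM factors) in progenitor libraries labelled mutant and 127 ± 9.10 CPM in progenitor controls (SD, n = 4 each). It had 179 ± 7.41 CPM in postmitotic libraries labelled mutant and 147 ± 3.48 CPM in postmitotic controls (SD, n = 3 each), and was called higher there by edgeR (adjusted p = 0.0276). Neurod6, the gene that carries NexCre, had 126, 117 and 90.7 CPM in postmitotic libraries labelled mutant, against 162, 173 and 176 CPM in postmitotic controls. It was lower in every library labelled mutant, at a log2 fold change of -0.61 ± 0.11 (SE, adjusted p = 0.0135 by edgeR). Which exons are floxed is not stated in the labels, and the counts are sums over the gene, so they do not check the deletion of single exons. The 8 progenitor libraries held 22677019 to 29497595 counts each, and the 6 postmitotic ones 21605777 to 25891416. The summed level of Y-linked genes was above 1 CPM in 3 of 4 progenitor libraries labelled mutant and in 0 of 4 progenitor controls, against 1 of 3 and 2 of 3 in the postmitotic experiment. The labels do not tie libraries to separate animals, so errors and p-values measure the spread between libraries, which may be partly technical. Excitatory neuron markers were abundant in every library, with a sum over 8 genes of 1662 to 1867 CPM in progenitor libraries labelled mutant, 1691 to 1835 CPM in progenitor controls, 1878 to 1999 CPM in postmitotic libraries labelled mutant and 1891 to 1982 CPM in postmitotic controls.

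Per kilobase of exon, the member with the highest level in progenitor controls was Camkv, a kinase-like protein without catalytic activity that is needed for the upkeep of dendritic spines, at 206 ± 14.2 CPM per kb (SD, n = 4). Camk2n2 followed at a mean of 164 (149 to 188), Camk4 at 145 ± 16.5 and Camk2b at 118 ± 7.34 CPM per kb. Each of these neighbours overlapped the next in range, apart from Camkv, which stood above Camk2n2 in all 4 controls. Camk2a at 91.9 ± 3.60 and Camk2n1 at 86.5 ± 10.2 CPM per kb overlapped each other and lay below Camk2b. Camk2g (32.6 ± 2.25), Camk1d (13.6 ± 1.65), Camk1g (10.4 ± 0.716) and Camk2d (3.27 ± 0.329 CPM per kb) came last, with no overlap between neighbours. The level of Camk2d is divided by 22493 bases of annotated exon, against 7465 bases for Camk2a. In postmitotic controls Camkv (154 ± 9.44 CPM per kb, SD, n = 3), Camk2n2 (126 ± 17.0) and Camk2b (109 ± 1.92) again led the order and Camk2d (1.61 ± 0.178) closed it, while Camk4 stood in seventh place at 16.9 ± 0.394 CPM per kb. Raw counts behind these levels ran between 691 and 31593 per library and member in progenitor libraries and between 733 and 27775 in postmitotic ones. The order depends on the length used. With coding length in place of exon length, Camk2n1 led in progenitor controls at 1643 ± 193 CPM per kb, against 504 ± 34.8 for Camkv. It also led in postmitotic controls, at 1296 ± 168 CPM per kb, against 378 ± 23.1 for Camkv.

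Promoter windows from RefSeq (GRCm38.p6) were read for 6 of the 10 members, as 7 windows of 300 bases. Each reaches from 250 bases before to 50 bases after a transcription start. No window was read for Camk2a, Camk4, Camk2g or Camk2n1, so the motif counts below do not cover these members. The 250 upstream bases are shown for the member with the most negative difference in the progenitor experiment (Camk2d), for the only member with a positive one there (Camk1g), and for the windows that held a motif upstream of the start (Camk2n2 and the downstream start of Camk1d). Capitals mark matches, on either strand, to TGACG, the core of the cAMP response element bound by CREB, or to CAGATG, an E-box bound by proneural factors.
Camk2d (chr3:126596701-126596950, plus strand): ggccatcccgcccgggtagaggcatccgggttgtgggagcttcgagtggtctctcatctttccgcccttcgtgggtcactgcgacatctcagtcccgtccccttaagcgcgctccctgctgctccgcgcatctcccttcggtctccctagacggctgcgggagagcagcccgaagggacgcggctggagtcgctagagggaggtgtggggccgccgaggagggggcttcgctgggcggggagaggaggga
Camk1g (chr1:193370283-193370532, minus strand): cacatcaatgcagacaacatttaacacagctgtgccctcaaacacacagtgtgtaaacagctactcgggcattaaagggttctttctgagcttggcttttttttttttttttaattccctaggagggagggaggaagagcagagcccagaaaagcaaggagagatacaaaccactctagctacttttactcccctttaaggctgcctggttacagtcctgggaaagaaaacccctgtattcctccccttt
Camk2n2 (chr16:20621279-20621528, minus strand): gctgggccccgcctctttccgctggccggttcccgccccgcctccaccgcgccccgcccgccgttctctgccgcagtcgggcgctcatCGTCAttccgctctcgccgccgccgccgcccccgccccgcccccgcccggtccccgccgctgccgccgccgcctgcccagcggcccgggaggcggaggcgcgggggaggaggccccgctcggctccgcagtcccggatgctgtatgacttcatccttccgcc
Camk1d (chr2:5676047-5676296, minus strand): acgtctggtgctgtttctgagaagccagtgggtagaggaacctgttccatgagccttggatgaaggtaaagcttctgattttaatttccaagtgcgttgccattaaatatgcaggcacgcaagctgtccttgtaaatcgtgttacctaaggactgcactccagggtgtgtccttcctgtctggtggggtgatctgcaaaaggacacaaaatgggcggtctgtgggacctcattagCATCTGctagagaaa
TGACG was found in 1 of the 7 windows, that of Camk2n2, and is in 20.8% of 32851 promoter windows of the same length. CAGATG was in 1 of the 7, that of the downstream Camk1d start, and is in 17.2% of all windows. TAATTA, a core letter string of homeodomain sites, was also in 1 of the 7, in the bases after the same Camk1d start, and is in 5.29% of all windows. CATATG and the full element TGACGTCA were in 0 of the 7, and are in 3.91% and 1.79% of all windows. No motif overlapped another in the stretches shown. The window of Camk1g was 44.7% G and C and that of the downstream Camk1d start 48.7%, against 70.3% for Camk2d and 79.0% for Camk2n2. These are letter matches in a short window and say nothing about binding.

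The differences between libraries labelled mutant and controls, in both experiments, were among the values known when these 10 genes were chosen. They are therefore given as a description. Calls of members in the fit over all genes are printed beside the share of all genes called, and are no independent test. In the progenitor experiment 9 of the 10 members had a negative and 1 a positive log2 fold change (libraries labelled mutant over controls), with a median of -0.30 over the members and 0.00 over all 15295 tested genes. Of the members, 6 lay past an adjusted p of 0.05 in edgeR's quasi-likelihood test, all of them lower, while 23.4% of all tested genes were called, 11.4% as lower. The ranges of the groups did not overlap for 6 members, all lower in the libraries labelled mutant. They did not overlap for 27.0% of all tested genes, 13.3% with the libraries labelled mutant lower and 13.7% with them higher. In the postmitotic experiment the members split evenly, with 5 negative and 5 positive values and a median of 0.00, equal to that of all 17775 tested genes.

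**Figure D1:**
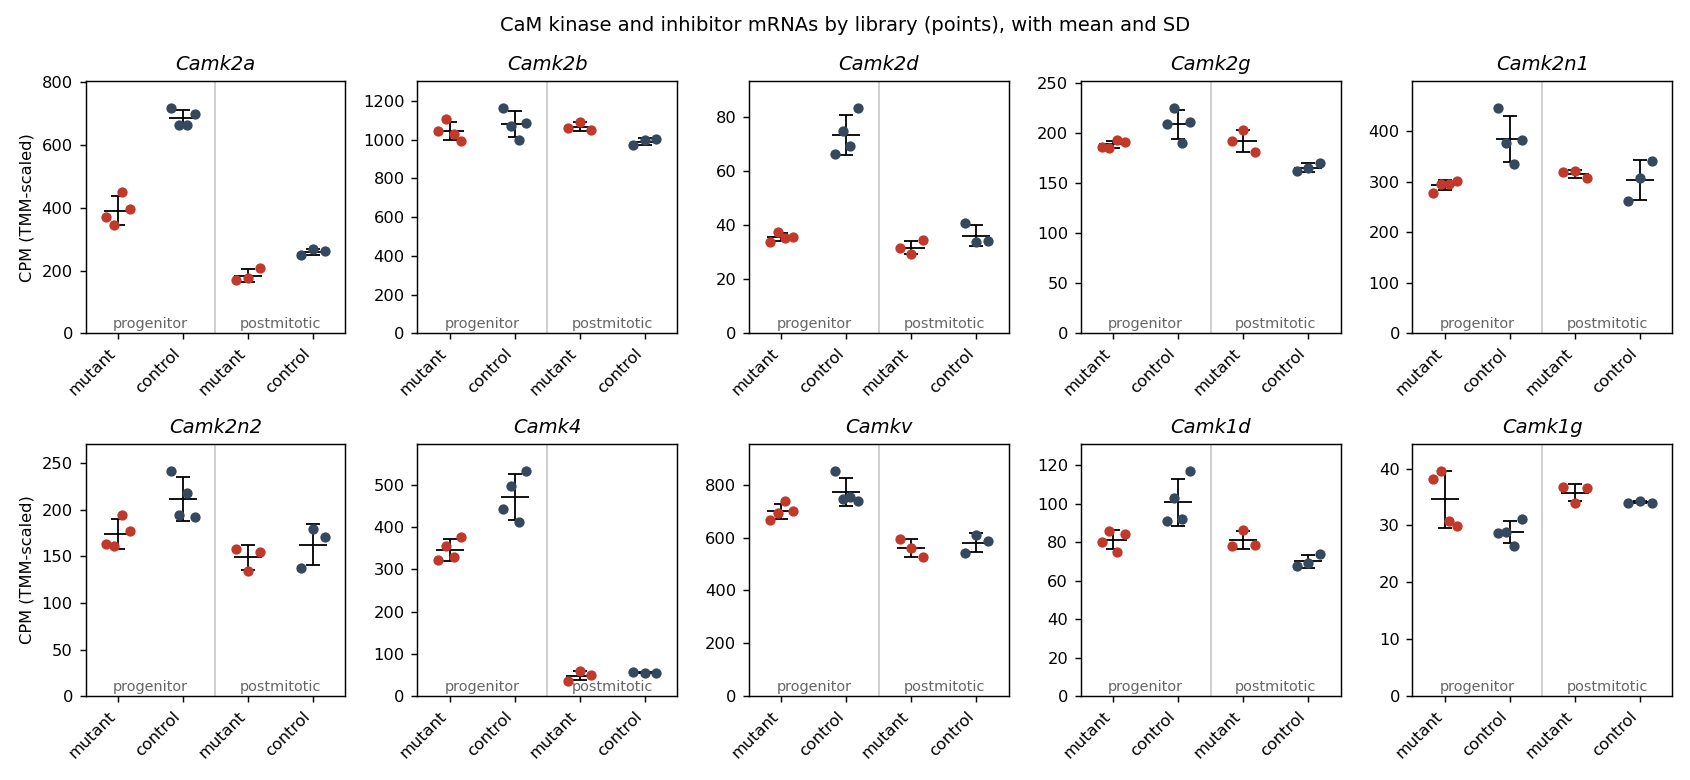
TMM-scaled CPM of the 10 members in each library (points), with the mean and SD of each group; libraries labelled mutant (red) stand left of controls (dark) within each experiment, and each gene has its own axis from 0. Camk2a and Camk2d of the progenitor experiment show the widest separation, with Camk2a at 344 to 452 CPM in libraries labelled mutant and 663 to 718 CPM in controls.

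Among the CaMKII subunits of the progenitor experiment, the delta and alpha mRNAs were lower and the beta mRNA was at about the same level in both groups. Camk2a (chromosome 18), the alpha subunit of forebrain excitatory neurons, had 371, 344, 452 and 398 CPM in libraries 1 to 4 labelled mutant, against 718, 665, 663 and 698 CPM in controls 1 to 4. The highest library labelled mutant stayed well below the lowest control. The means were 391 ± 46.0 CPM in libraries labelled mutant and 686 ± 26.9 CPM in controls (SD, n = 4 each). The log2 fold change was thus -0.81 ± 0.08 (SE), or 57.0% of the control level. Camk2d (chromosome 3, 126596302 to 126846326, plus strand, GRCm38/mm10), the delta subunit, which is best known from heart but is also made in brain, had 33.9, 37.6, 35.1 and 35.7 CPM in libraries labelled mutant, against 66.5, 74.8, 69.4 and 83.3 CPM in controls. Its 4 libraries labelled mutant lay close together, and the controls were spread more widely and entirely above them. The log2 fold change of -1.05 ± 0.07 (SE), or 48.3% of the control level, was the most negative of the 10 members.

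Camk2b (chromosome 11, 5969644 to 6066362, minus strand), the beta subunit that binds actin, had 1046, 1108, 1027 and 995 CPM in progenitor libraries labelled mutant, against 1163, 1072, 1000 and 1087 CPM in controls. These ranges overlapped over most of their width, with a log2 fold change of -0.05 ± 0.06 (SE). Camk2g (chromosome 14, 20734875 to 20794088, minus strand), the gamma subunit, known for carrying calmodulin to the nucleus, had 186, 185, 193 and 191 CPM in libraries labelled mutant, against 209, 225, 190 and 211 CPM in controls. Only control 3 fell within the range of the libraries labelled mutant, and the log2 fold change was -0.14 ± 0.05 (SE). The alpha and delta subunits thus differed between the labels by much more than the spread of their libraries, and the beta subunit by less than it.

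The make-up of CaMKII mRNA followed from these values. Taken per kilobase of exon, Camk2a made up 25.5%, 23.3%, 29.6% and 27.5% of the summed CaMKII level in progenitor libraries labelled mutant, against 37.1%, 36.3%, 38.4% and 37.5% in controls. The share of the alpha subunit was lower in each of the 4 libraries labelled mutant than in any control. Camk2b made up 57.8 ± 2.81% in libraries labelled mutant and 48.1 ± 0.768% in controls (SD, n = 4 each), so the beta share was higher where the alpha share was lower. The ratio of alpha to beta was 0.460 ± 0.0687 in libraries labelled mutant and 0.777 ± 0.0264 in controls. Camk2g made up 14.9 ± 0.364% in libraries labelled mutant and 13.3 ± 0.783% in controls, and Camk2d 0.799 ± 0.0378% in libraries labelled mutant and 1.33 ± 0.143% in controls.

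**Figure D2:**
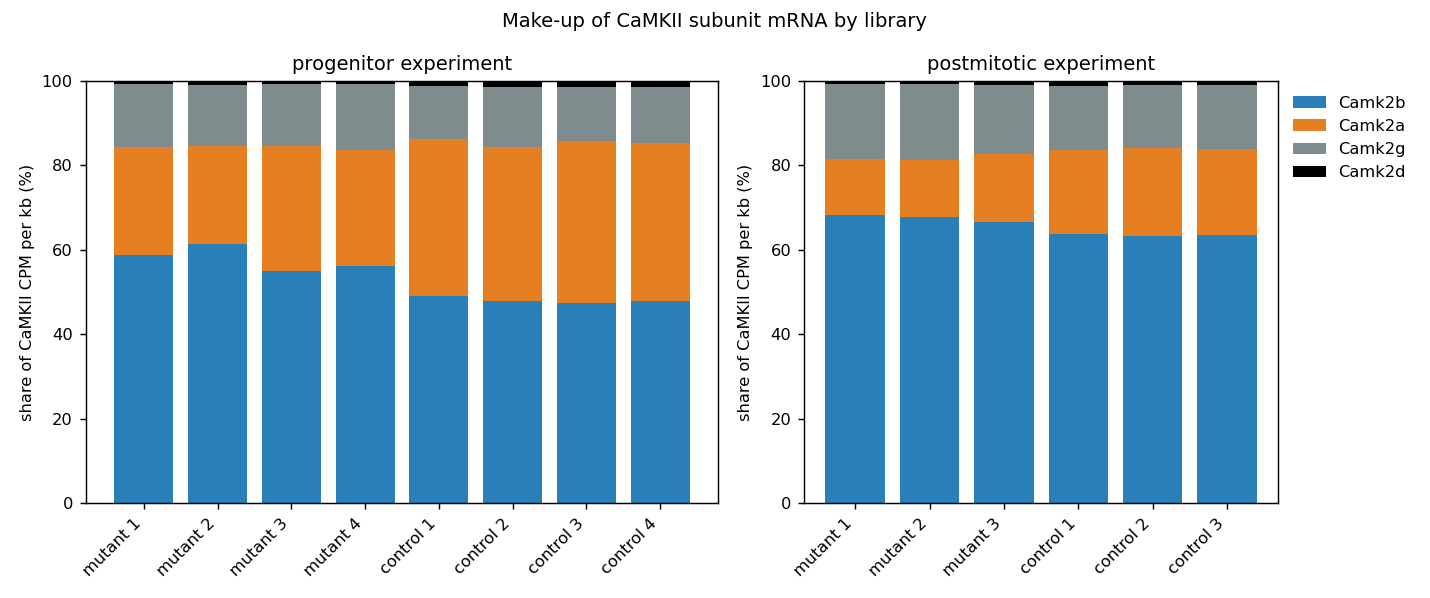
Share of each CaMKII subunit in the summed CPM per kilobase of exon, one bar per library, with libraries labelled mutant left of controls. The Camk2a share (orange) lies between 23.3% and 29.6% in progenitor libraries labelled mutant and between 36.3% and 38.4% in progenitor controls, and between 13.4% and 16.1% in postmitotic libraries labelled mutant and 19.99% and 20.9% in postmitotic controls.

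Camk2n1 and Camk2n2 encode small proteins that bind active CaMKII and block it. Camk2n1 (chromosome 4, 138454314 to 138460123, plus strand) had 278, 296, 295 and 301 CPM in progenitor libraries labelled mutant, against 445, 377, 335 and 382 CPM in controls. All 4 libraries labelled mutant lay below the lowest control and were closer to each other than the controls were. The log2 fold change was -0.39 ± 0.08 (SE). Camk2n2 (chromosome 16, 20619215 to 20621287, minus strand) had 163, 161, 195 and 177 CPM in libraries labelled mutant, against 242, 195, 218 and 192 CPM in controls. Library 3 labelled mutant overlapped the lower controls, and the log2 fold change was -0.28 ± 0.08 (SE). The summed inhibitor level per kilobase over that of the 4 CaMKII subunits was 1.01 ± 0.0533 in libraries labelled mutant and 1.02 ± 0.0784 in controls (SD, n = 4 each). Inhibitor and kinase mRNA were thus both lower, in a ratio that differed by less than its spread. With coding length in place of exon length the ratio was 2.34 in libraries labelled mutant and 2.39 in controls.

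Camk4 (chromosome 18), the nuclear CaM kinase, had 321, 354, 329 and 377 CPM in progenitor libraries labelled mutant, against 443, 497, 413 and 533 CPM in controls. The groups did not overlap, and the log2 fold change was -0.45 ± 0.08 (SE). Camk1d (chromosome 2, 5293457 to 5714515, minus strand), the delta isoform of CaMKI, had 80.2, 85.8, 74.7 and 84.3 CPM in libraries labelled mutant, against 91.0, 103, 91.9 and 117 CPM in controls. These groups did not overlap either, but controls 1 and 3 were close to the libraries labelled mutant, and the log2 fold change was -0.31 ± 0.08 (SE). Camkv (chromosome 9, 107935674 to 107949691, plus strand) had 668, 695, 737 and 701 CPM in libraries labelled mutant, against 853, 748, 754 and 739 CPM in controls. The groups stood just apart, by 737 against 739 CPM, and control 1 was far above the other controls. Its log2 fold change was -0.14 ± 0.06 (SE). Camk1g (chromosome 1, 193346346 to 193370298, minus strand), the gamma isoform of CaMKI, which in rodent neurons acts on dendrite growth, was the 1 member with a positive value, at 0.26 ± 0.10 (SE). It had 38.2, 39.6, 30.7 and 29.9 CPM in libraries labelled mutant, against 28.7, 28.9, 26.4 and 31.2 CPM in controls. Libraries 1 and 2 labelled mutant were above every control, while libraries 3 and 4 lay within reach of control 4.

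**Figure D3:**
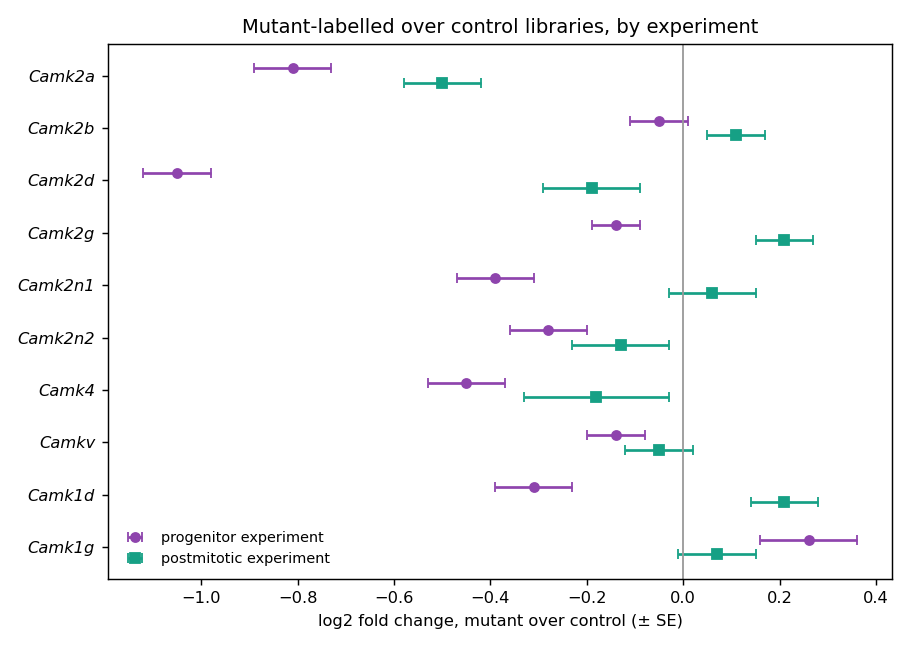
Log2 fold change of each member, libraries labelled mutant over controls, with its SE, for the progenitor (circles) and the postmitotic experiment (squares). Camk2a lies below 0 in both, at -0.81 and -0.50, and Camk2d at -1.05 and -0.19, while Camk2b, Camk2g, Camk2n1 and Camk1d lie on opposite sides of 0.

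The members called in the progenitor experiment were Camk2a, Camk2d, Camk4, Camk2n1, Camk2n2 and Camk1d, and 4 to 6 members were called with 1 library left out at a time, not always the same ones. Camk2n2 was not called without libraries 1, 2 or 4 labelled mutant or controls 1 or 3, and Camk1d not without libraries 1 or 3 labelled mutant. Camk1g was called without library 4 labelled mutant, and Camk2g without control 3 and by DESeq2, which called 7 members. Calls over all genes moved as well, from 3577 in the main fit to 3972 with DESeq2 and to 2383 to 3712 with 1 library left out. The changes in the number of members called are therefore not particular to the members. With presence of Y-linked counts as a covariate 3 members were called, Camk2a, Camk2d and Camk4. That fit rests on library 1 labelled mutant, the 1 library of its group without Y-linked counts, which read 371 CPM for Camk2a and 33.9 CPM for Camk2d. Markers of other cell types were read beside these results. The summed level of each marker list overlapped between the labels in the progenitor experiment: 240 to 281 CPM in libraries labelled mutant and 254 to 335 CPM in controls for 7 interneuron genes, 1348 to 1630 and 1315 to 1743 CPM for 6 astrocyte and radial glia genes, 452 to 542 and 430 to 504 CPM for 6 oligodendrocyte lineage genes, 79.0 to 112 and 94.9 to 148 CPM for 7 microglia genes, 322 to 426 and 257 to 371 CPM for 6 endothelial and mural genes, and 215 to 317 and 250 to 350 CPM for 6 deep layer and subplate genes. Single markers of these 6 lists passed edgeR's quasi-likelihood test: the interneuron genes Gad1 (-0.33 ± 0.09, log2 ± SE) and Slc32a1 (-0.53 ± 0.10), Gfap of astrocytes (-1.23 ± 0.34), Aif1 of microglia (4.87 ± 2.14 CPM in libraries labelled mutant and 9.75 ± 1.29 CPM in controls), and Nr4a2 (-2.07 ± 0.50) and Cplx3 (-1.80 ± 0.45) of the deep layer and subplate list fell. Pdgfra of oligodendrocyte precursors (0.34 ± 0.05) and Rgs5 of mural cells (0.52 ± 0.14) rose. In the excitatory neuron list Slc17a7, a vesicular glutamate transporter, fell by 0.78 ± 0.10, while Pou3f2 (0.29 ± 0.09) and Neurod2 (0.30 ± 0.06) rose. Their part in the members' differences was not tested. In bulk tissue, fewer cells of a type and less RNA per cell cannot be told apart.

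In the postmitotic experiment Camk2a was again lower in the libraries labelled mutant, and the other CaMKII subunits were not lower beyond their spread. Camk2a had 170, 176 and 207 CPM in libraries 1 to 3 labelled mutant, against 249, 269 and 262 CPM in controls 1 to 3. The groups did not overlap. The means were 184 ± 19.9 CPM in libraries labelled mutant and 260 ± 10.3 CPM in controls (SD, n = 3 each). The log2 fold change was thus -0.50 ± 0.08 (SE), or 70.8% of the control level. Camk2a was the 1 member past an adjusted p of 0.05 in edgeR's quasi-likelihood test, where 1.96% of all tested genes were called, 1.06% as lower. As both contrasts chose these genes, nothing is read from that call.

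Camk2b had 1058, 1092 and 1048 CPM in postmitotic libraries labelled mutant, against 970, 998 and 1003 CPM in controls, and Camk2g had 192, 203 and 181 CPM in libraries labelled mutant, against 162, 165 and 170 CPM in controls. Both were higher in every library labelled mutant than in any control, with log2 fold changes of 0.11 ± 0.06 and 0.21 ± 0.06 (SE). Camk1d followed the same pattern, with 77.8, 86.3 and 78.6 CPM in libraries labelled mutant, against 67.5, 68.9 and 73.8 CPM in controls, and a log2 fold change of 0.21 ± 0.07 (SE). These were the 3 members with non-overlapping higher ranges, and Camk2a the 1 with a lower one, while 16.4% of all tested genes had ranges apart, 7.98% with the libraries labelled mutant higher and 8.44% with them lower. The alpha share of CaMKII was 13.4%, 13.4% and 16.1% in libraries labelled mutant, against 19.99%, 20.9% and 20.3% in controls, again lower in each. The ratio of alpha to beta was 0.212 ± 0.0258 in libraries labelled mutant and 0.321 ± 0.00823 in controls (SD, n = 3 each).

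The other members overlapped between the labels in the postmitotic experiment. Camk2d had 31.4, 29.4 and 34.4 CPM in libraries labelled mutant, against 40.8, 33.7 and 34.0 CPM in controls, a log2 fold change of -0.19 ± 0.10 (SE). Control 1 alone was clearly above the libraries labelled mutant. Camk2n1 had 319, 321 and 306 CPM in libraries labelled mutant, against 262, 307 and 340 CPM in controls, and Camk2n2 had 158, 134 and 155 CPM in libraries labelled mutant, against 138, 179 and 171 CPM in controls. Their log2 fold changes, 0.06 ± 0.09 and -0.13 ± 0.10 (SE), lay within the spread of the controls. The inhibitor to CaMKII ratio was 1.08 ± 0.0751 in libraries labelled mutant and 1.14 ± 0.123 in controls. Camkv (-0.05 ± 0.07) and Camk1g (0.07 ± 0.08) were close to 0, with 525 to 594 CPM in libraries labelled mutant and 542 to 611 CPM in controls for Camkv, and 34.0 to 36.7 CPM in libraries labelled mutant and 33.9 to 34.3 CPM in controls for Camk1g.

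Some marker sums stood apart in this experiment. The 6 astrocyte and radial glia genes summed to 748 to 842 CPM in postmitotic libraries labelled mutant and 878 to 966 CPM in controls, the 7 microglia genes to 36.0 to 44.5 and 46.2 to 48.0 CPM, and the 6 deep layer and subplate genes to 293 to 368 and 264 to 279 CPM. The sums of the interneuron (290 to 307 CPM in libraries labelled mutant and 268 to 298 CPM in controls), oligodendrocyte lineage (275 to 317 and 293 to 333 CPM) and endothelial and mural lists (176 to 205 and 193 to 230 CPM) overlapped. The overlapping excitatory sum held single genes called by edgeR in both directions: Slc17a6 (-1.08 ± 0.11, log2 ± SE), Neurod6 (-0.61 ± 0.11) and Cux1 (-0.47 ± 0.06) fell and Neurod2 (0.51 ± 0.09) rose. Only the libraries labelled mutant carry NexCre in Neurod6, so for this gene a change in cells and the driver allele cannot be told apart. Of the deep layer and subplate list Tbr1 (0.49 ± 0.07) and Foxp2 (0.75 ± 0.15) rose. Nr4a2 of that list went the other way without being called (-1.61 ± 0.40). It had 6.72 ± 2.01 CPM in libraries labelled mutant and 20.4 ± 8.14 CPM in controls (SD, n = 3 each). Fezf2 (0.32 ± 0.15), Bcl11b (0.28 ± 0.09) and Cplx3 (1.15 ± 0.30) were positive and not called. Every listed marker averaged at least 1 CPM in both tables. Their part in the members' values was not tested.

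Camk4 was the member whose level differed most between the tables. It had 36.6, 59.5 and 49.9 CPM in postmitotic libraries labelled mutant, against 56.1, 53.6 and 55.4 CPM in postmitotic controls, a log2 fold change of -0.18 ± 0.15 (SE), the widest error of the 10. The controls lay close together and the libraries labelled mutant on both sides of them. Postmitotic controls averaged 0.117 times the CPM of progenitor controls for Camk4, a ratio under which only 0.478% of 14449 genes fell, where the median gene had a ratio of 0.911. The ratio was 0.379 for Camk2a, 0.492 for Camk2d, and between 0.696 and 1.18 for the other 7 members. RefSeq places the end of Camk4 4539 bases downstream of the end in GENCODE M21, against at most 15 bases for the other members, and the sources used here do not name the annotation behind either table. The tables were counted separately, so these ratios are set side by side and not tested, and the part of the annotation was not tested. An antisense gene, 2310026I22Rik, shares 72 exonic bases with Camk4, and no other member shares exonic bases with another gene.

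Between the experiments, the difference of the log2 fold changes (postmitotic minus progenitor, in 1 fit of all 14 libraries) was 0.86 ± 0.13 (SE) for Camk2d, 0.52 ± 0.12 for Camk1d, 0.45 ± 0.12 for Camk2n1, 0.36 ± 0.08 for Camk2g and 0.31 ± 0.12 for Camk2a. It was 0.27 ± 0.18 for Camk4, 0.16 ± 0.08 for Camk2b, 0.16 ± 0.14 for Camk2n2, 0.09 ± 0.09 for Camkv and -0.20 ± 0.13 for Camk1g. No test is given, because both contrasts were used to choose these genes. In the authors' deposited tables Camk2a had a log2 fold change of -0.82 for progenitor and -0.58 for postmitotic libraries, and Camk2d one of -1.06 and -0.29. The postmitotic values differ from those found here, -0.50 for Camk2a and -0.19 for Camk2d. The cause was not tested.

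The profile of Camk2a over the 14 libraries was compared with that of 14439 other genes, each centred within its experiment, by the root mean square difference of log2 CPM. The closest was Ddn, which encodes dendrin, a postsynaptic protein, at 0.08, where a flat profile would be 0.36 away. Gabra4, a GABA-A receptor subunit, Slc6a7, a brain proline transporter, Slc39a12, a zinc transporter, and Pgbd5, a gene derived from a transposase, followed at 0.12 each. Ddn had log2 fold changes of -0.71 ± 0.07 (SE) among progenitor and -0.51 ± 0.07 among postmitotic libraries. These genes were chosen for likeness to Camk2a, so their differences are a description.

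Genes around the CaM kinases were read from 5 lists with 85 genes in all, adjusted over all tested genes. In the progenitor experiment 33 of 85 were called by edgeR's quasi-likelihood test, 26 lower and 7 higher, and the median log2 fold change was -0.05. Of all tested genes 23.4% were called, 11.4% as lower, and these shares stand beside the progenitor count of each list below. Of the 33 calls, 19 were kept whichever library was left out. With presence of Y-linked counts as a covariate 9 were kept (Phkg1, Nrgn, Ppp3r1, Rcan2, Grin1, Cacng3, Itpka, Syn1 and Crtc3), and all 33 kept their direction.

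Of calmodulin and its buffers, 6 of 8 genes were lower in the progenitor libraries labelled mutant, with a median of -0.29. Gap43 (-0.03 ± 0.06, log2 ± SE) and Marcks (0.07 ± 0.04) were not called. Calm2 and Calm3, which encode calmodulin, fell by 0.31 ± 0.07 and 0.25 ± 0.05 (log2 ± SE). Calm2 had 1070 ± 74.5 CPM in libraries labelled mutant and 1326 ± 121 CPM in controls, and Calm3 1663 ± 53.1 CPM in libraries labelled mutant and 1972 ± 90.7 CPM in controls (SD, n = 4 each). Nrgn, neurogranin, which holds calmodulin in dendrites while calcium is low, fell by 0.48 ± 0.09, and Pcp4, a small calmodulin-binding protein, by 0.40 ± 0.09. Calm2, Calm3 and both of these buffers thus passed the test in the same direction. Processed copies of Calm2 and Calm3 could share their reads, and Pcp4 shares exonic bases with Igsf5 on its own strand.

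Of 18 phosphatases that oppose the kinases and their regulators, 7 fell, with a median of -0.18. Ppp3ca and Ppp3r1, the catalytic and regulatory subunits of calcineurin, the calmodulin-dependent phosphatase, fell by 0.31 ± 0.07 and 0.38 ± 0.07, and Rcan2, a calcineurin regulator, by 0.45 ± 0.07. Ppp1cb, a catalytic subunit of protein phosphatase 1, fell by 0.19 ± 0.05 and Ppm1e, a phosphatase of CaM kinases, by 0.37 ± 0.10. Both of these calls ended when some single libraries were left out, without libraries 1 or 3 labelled mutant for each and also without control 2 or 4 for Ppm1e, where edgeR gave adjusted p as high as 0.0676 for Ppp1cb and 0.0631 for Ppm1e. Ppp3r1 and Ppp1cb share exonic bases with another gene on their own strand.

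Among 24 CaMKII partners and substrates at the synapse 8 fell and 1 rose, with a median of -0.06. Itpka, a kinase of inositol trisphosphate that bundles actin in spines, fell by 1.25 ± 0.16, to 11.7 ± 1.38 CPM in libraries labelled mutant, against 27.9 ± 6.66 CPM in controls (SD, n = 4 each). Cacng3, an AMPA receptor auxiliary subunit, fell by 1.02 ± 0.08, to 17.4 ± 0.350 CPM in libraries labelled mutant, against 35.2 ± 4.15 CPM in controls. Syn1, the synaptic vesicle protein synapsin, fell by 0.35 ± 0.06, Grin1, the obligatory NMDA receptor subunit, by 0.32 ± 0.06, and Dlg4, the scaffold PSD-95, by 0.19 ± 0.05. The call of Dlg4 ended without libraries 1, 2 or 4 labelled mutant or control 4, where edgeR gave an adjusted p as high as 0.0824. An antisense gene shares exonic bases with Grin1.

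Of 17 other CaM kinases and relatives, 3 fell and 2 rose, with a median of 0.05. Camk1, the alpha isoform of CaMKI, fell by 0.22 ± 0.05, Phkg1, the catalytic subunit of phosphorylase kinase, by 0.89 ± 0.18, and Dclk3, a doublecortin-like kinase, by 0.52 ± 0.14. Dapk1, a calmodulin-dependent death-associated kinase, rose by 0.20 ± 0.06 and Dclk2 by 0.19 ± 0.05. The calls of Dapk1 (without library 1 labelled mutant), Dclk2 (without libraries 2 or 3 labelled mutant) and Dclk3 (without control 2) ended, where edgeR gave adjusted p as high as 0.0770 for Dapk1, 0.0556 for Dclk2 and 0.0552 for Dclk3. Camk1 and Phkg1 each share exonic bases with a gene on the opposite strand (Ogg1 and Sumf2).

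In the CREB and MEF2 branch, which CaMKIV and CaMKI feed, 4 of 18 genes rose and 2 fell, with a median of 0.05. Crtc3 (0.53 ± 0.09) and Crtc2 (0.34 ± 0.07), coactivators of CREB, and Nr4a1 (0.51 ± 0.09), an activity-induced nuclear receptor, rose, while Mef2a (-0.32 ± 0.06) and Mef2d (-0.28 ± 0.06), transcription factors released by CaM kinases from class II histone deacetylases, fell. Genes on the opposite strand share exonic bases with Mef2a and Mef2d.

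**Figure D4:**
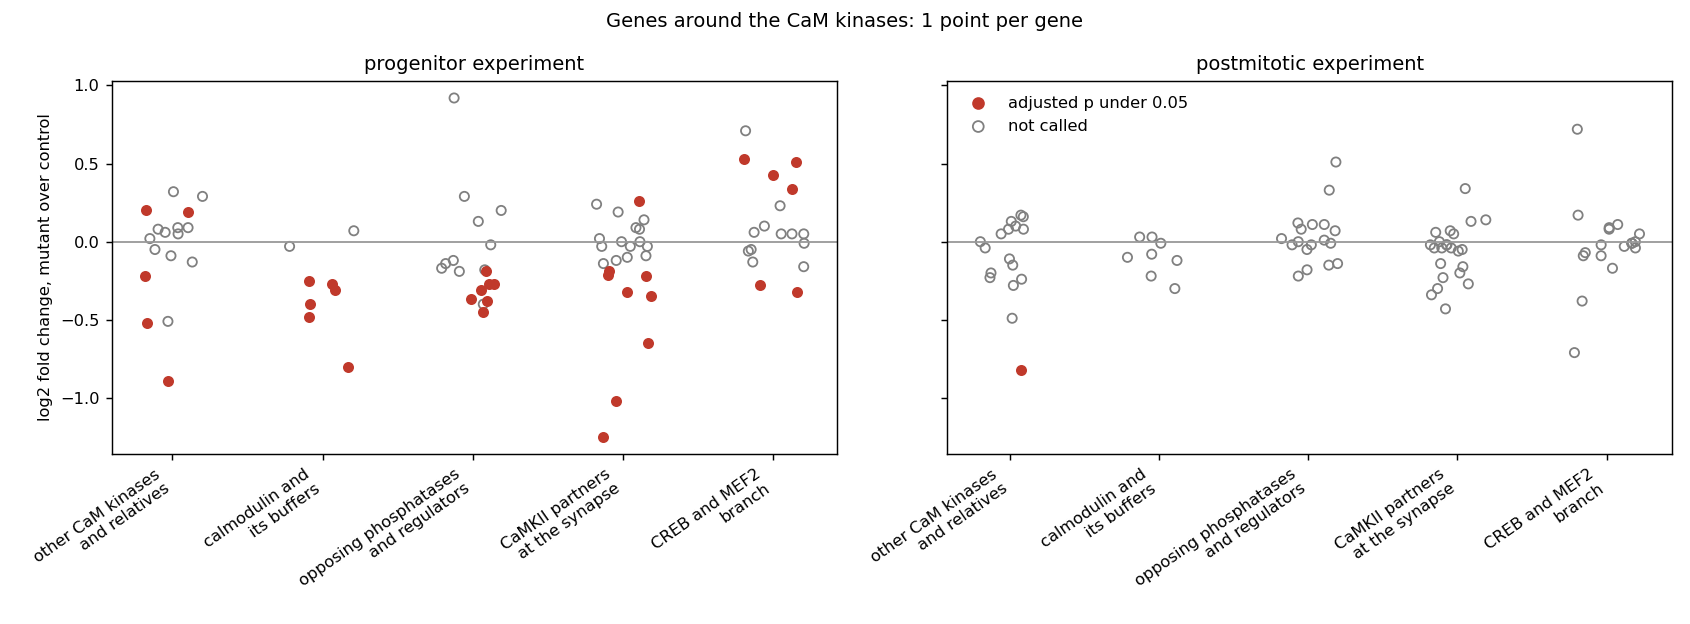
Log2 fold changes, libraries labelled mutant over controls, of the genes in 5 lists around the CaM kinases, 1 point per gene; filled points passed an adjusted p of 0.05. In the progenitor experiment 33 of 85 genes are filled, 26 of them below 0, and in the postmitotic experiment 1 of 84 is filled, Dclk3.

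In the postmitotic experiment 1 of 84 tested genes of these lists was called, beside 1.96% of all tested genes, and the median was -0.02. It was Dclk3, which fell by 0.82 ± 0.13, to 9.20 ± 1.42 CPM in libraries labelled mutant, against 16.3 ± 0.904 CPM in controls (SD, n = 3 each; Benjamini-Hochberg adjusted p = 0.00404 by edgeR). In the other 4 lists edgeR's quasi-likelihood test called 0 genes and limma-voom 0. DESeq2 called 2 (Nrgn and Npas4, lower in the libraries labelled mutant), where it called 500 over all genes. An unadjusted p under 0.05 in edgeR was found for 10. The share of all genes under that unadjusted threshold was not counted, so nothing is read from the 10. The difference between the experiments was tested for the listed genes by the interaction of experiment and label. In it 8 of the 85 were called, beside 6.94% of all 15643 genes tested.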

How the data were processed

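Polyadenylated RNA was sequenced with a directional kit in 14 libraries, per the labels' protocols. The authors deposited a table of whole-number read counts per gene symbol for each experiment. HISAT2, featureCounts and DESeq2 with build mm10 are named in the submitters' processing notes. Versions, annotation and strandedness of counting (not given in the sources used here) could change the counts of overlapping genes. The authors also deposited DESeq2 tables with log2 fold changes, Wald scores and p-values per gene, of which only log2 fold changes of members were used. The tables held 0 columns of other samples.

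Each count table was fitted alone with edgeR 4.0.16 in R 4.3.3 (filterByExpr, TMM factors, robust glmQLFit, glmQLFTest), with Benjamini-Hochberg adjustment over all tested genes and a threshold of 0.05. The SE is the absolute log2 fold change divided by the square root of F. The interaction came from 1 fit of all 14 libraries over shared symbols. Simulated counts with planted changes were used to test the scripts. Exon lengths and positions are the union of exons in GENCODE M21 (GRCm38/mm10), whose fit to either count table is unknown. The alternatives were other scaling, filters and tools (DESeq2 1.42.0, limma-voom with limma 3.58.1), thinned counts, a sex covariate, a replicate block and leaving out libraries; coding length was added after seeing the data, since no protein table was used here. The members, lists and alternatives were chosen with earlier results of these data known. Genes of a list named in the text are the called ones, up to 5 with the smallest p per list and experiment, and the 5 genes closest to Camk2a. Npas4, Neurod6, Gap43, Marcks, the called markers and the uncalled deep layer and subplate markers were named after their values were seen. Some listed genes are not reported here by name.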

Additional observations from a re-analysis of the deposited data

Results flagged for a closer look

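Camkv in progenitor control 1 stood at 853 CPM, far from the other 3 controls at 739 to 754 CPM. It was the 1 such case among 22 groups of 4 libraries examined (10 members and Lhx2), where chance alone gives about 1 in 20.

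For Camk1d, every postmitotic library labelled mutant was above every control (log2 fold change 0.21) and every progenitor library labelled mutant was below every control (-0.31). The difference was not tested.

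For 7 of the named genes around the CaM kinases the difference of log2 fold changes, postmitotic minus progenitor, passed the interaction test in edgeR's quasi-likelihood fit with Benjamini-Hochberg adjustment. It was 0.95 ± 0.22 (SE, adjusted p = 0.0178) for Itpka, 0.68 ± 0.14 (adjusted p = 0.00707) for Cacng3, 0.46 ± 0.13 (adjusted p = 0.0452) for Ppm1e and 0.37 ± 0.09 (adjusted p = 0.0224) for Mef2d. It was 0.34 ± 0.09 (adjusted p = 0.0310) for Syn1, 0.30 ± 0.08 (adjusted p = 0.0301) for Camk1 and -0.44 ± 0.12 (adjusted p = 0.0405) for Crtc2, in the same edgeR fit. Npas4, outside the rule for named genes, was the eighth listed gene called, at -1.14 ± 0.21 (adjusted p = 0.00503, edgeR). Of all 15643 genes in that fit, 6.94% were called. The fit held no term for Y-linked counts, which were above 1 CPM in 3 of 4 progenitor libraries labelled mutant and in 0 of 4 progenitor controls. Their part in these differences was not tested. The interaction calls of Cacng3 and Npas4 held without any 1 library. The others ended without 2 to 11 of the 14 libraries in turn, the largest adjusted p being 0.0581 for Itpka, 0.103 for Ppm1e, 0.0586 for Mef2d, 0.0823 for Syn1, 0.0816 for Camk1 and 0.107 for Crtc2 in the same edgeR fit.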

How the results depend on the processing

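No member's log2 fold change moved by its spread between libraries or more, and none of the called members changed sign, under any alternative run. With presence of Y-linked counts as a covariate 893 progenitor genes were called in place of 3577. That fit kept 3 of the 6 called members and 9 of the 33 called listed genes. Leaving out 1 library gave 2383 to 3712 progenitor and 160 to 467 postmitotic calls, 4 to 6 progenitor members, 23 to 33 progenitor and 1 to 3 postmitotic listed genes, and 2 to 13 interaction calls among the listed genes. Postmitotic listed genes called were 3 with DESeq2 and 3 with libraries 1 and 2 of each group only. Over all genes these settings gave 500 and 314 postmitotic calls in place of 348. With no filter beyond a count above 0, 4 listed genes and 723 of all genes were called. The cause was not tested. The low counts were 2383 progenitor calls without mutant 3, 160 postmitotic calls without control 2 and 197 without control 3, and 2 interaction calls without postmitotic control 1. The interaction also had 4 calls without progenitor control 4 or postmitotic mutant 1, 5 without progenitor mutants 1, 3 or 4 or control 2, and 13 without progenitor control 3. Postmitotic listed genes were 3 without mutant 3 and 2 without control 1. The replicate block gave 4 interaction calls in place of 8 and changed no count of called members. Same-numbered libraries did not deviate together (correlations of -0.44 to 0.09 in the progenitor and -0.20 to 0.03 in the postmitotic experiment), so the numbers were not read as pairs. Libraries of unlike number correlated at -0.37 to 0.45 in the progenitor and at -0.10 to 0.18 in the postmitotic experiment. Batches shared across other numbers were not tested.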
